A study of Mus musculus with 6 samples.

Results

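The genes described here are the translation initiation factors, taken as every row of the gene count table whose symbol starts with Eif and a digit from 1 to 6, without the Eif2ak kinases and Eif4ebp1, together with Pdcd4, which encodes an inhibitor of the initiation helicase eIF4A. The rule gave 55 of the 23420 rows, and 52 of these were above 1 CPM (the count scaled to the size of its library) in at least 3 libraries, as were 13168 genes in all. The set was proposed with the difference between ob/ob and wild-type (WT) mice in these libraries already known, so that difference is given below as a description. Of the 55 rows, 4 (Eif2c1 to Eif2c4) carry former symbols of the Argonaute genes Ago1 to Ago4, whose proteins carry microRNAs and are not initiation factors. They were kept because the rule takes them, and the counts are also given without them.

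Bulk RNA sequencing was done on total RNA of whole proximal jejunum from ob/ob mice, which overeat for want of functional leptin, and from C57BL/6J WT mice. There were 3 libraries for each genotype, and each library was made from RNA of 2 jejuna mixed in equal amounts. According to the study's methods both kinds of mice were bought from the same supplier, were male and were fasted before they were killed. WT mice were not described as littermates of the ob/ob mice, and no source used here gives the age of the sequenced mice. The ob/ob mice lack leptin in the whole body from birth and are obese, so a direct effect on the gut cannot be told apart from overeating or obesity.

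The libraries held 14661981 to 18286080 counts, and 3 counts corresponded to 0.159 to 0.198 CPM. The mutated gene, Lep, had 0 to 29 counts per library, with values in both groups, and the ob allele changes a codon, so these counts gave no check of genotype. Enterocyte markers showed the tissue to be small intestine, with a summed level of 37203 to 39971 CPM in ob/ob and 29302 to 34261 CPM in WT and 2 of 6 genes higher in ob/ob. All 3 exocrine pancreas markers were at 0 in every library, and no other marker was at 0 in all libraries. Summed fibroblast markers were 205 to 262 CPM in ob/ob against 282 to 297 CPM in WT, with 0 of 3 genes past the threshold, and endothelial markers were 34.7 to 42.1 against 49.8 to 58.3 CPM, with 1 of 3 lower. Of the B and plasma cell markers, 2 of 4 were lower in ob/ob, with sums of 786 to 1023 against 556 to 957 CPM, most of it Igj. Of the fat cell markers 1 of 4 was lower, with sums of 86.1 to 96.9 against 80.6 to 164 CPM. Cidec made up most of that sum in ob/ob, at 84.8 to 96.9 CPM against 69.6 to 86.0 CPM in WT. Adipoq, Plin1 and Cfd were at 0 to 1.05 CPM in ob/ob. They were at 26.8, 9.56 and 41.5 CPM in WT library 2 and at 1.13 to 6.93 CPM in WT libraries 1 and 3. In whole tissue, fewer cells of a type and less RNA per cell cannot be told apart, and the part of these cell types in the results below was not tested.

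Initiation is the step at which a ribosome is brought to an mRNA and set on the start codon. The small ribosomal subunit binds eIF1, eIF1A, eIF3 and eIF5 with eIF2, which carries the initiator tRNA, while eIF4E holds the cap of the mRNA, eIF4G forms the scaffold and eIF4A unwinds the leader so that the subunit can scan along it. PDCD4 binds eIF4A and keeps it from eIF4G, and the 4E-BP proteins keep eIF4E from eIF4G. In the intestinal epithelium, where cells are replaced continually, PDCD4 is known as a tumour suppressor, and its mRNA is a well described target of the microRNA miR-21.

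The target site of miR-21 in the mouse Pdcd4 mRNA is printed here because Pdcd4 was the member with the largest difference. The mature microRNA (chr11:86584120-86584141, minus strand, GRCm38, from RefSeq) has its seed, bases 2 to 8, in capitals. The site, read from GENCODE M21 (chr19:53929417-53929439, plus strand, GRCm38), lies after the end of the coding sequence and has in capitals the 7 bases that pair with the seed.
miR-21a-5p: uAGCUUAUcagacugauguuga
Pdcd4 site: agtgtgggtgttctgATAAGCTa
The 7 bases in capitals start at base 1953 of the 2381 bases of transcript Pdcd4-201, whose coding sequence ends at base 1664. A row for the Mir21 gene was listed at 0 counts in every library, and mature microRNAs were not measured, so the data carry no value for the regulator of this site.

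Pdcd4 (chr19:53892231-53929860, plus strand) was lower in ob/ob. Its level was 56.7, 60.1 and 59.6 CPM in ob/ob libraries 1 to 3 and 87.1, 92.8 and 87.5 CPM in WT libraries 1 to 3. All ob/ob libraries lay below all WT libraries, with raw counts of 921, 989 and 1001 against 1545, 1407 and 1646. The means were 58.8 ± 1.85 and 89.1 ± 3.17 CPM (SD, n = 3 each), and the log2 fold change of ob/ob over WT was -0.60 with a standard error (SE) of 0.06. The ratio of ob/ob to WT was 0.660. No 50-base word of the longest protein-coding Pdcd4 transcript occurred exactly in a transcript of another gene. Copies that differ by scattered bases were not looked for. As a share of all raw counts, with no scaling factor, it took 0.00555 to 0.00580% in ob/ob and 0.00900 to 0.00960% in WT, again without overlap.

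**Figure D1:**
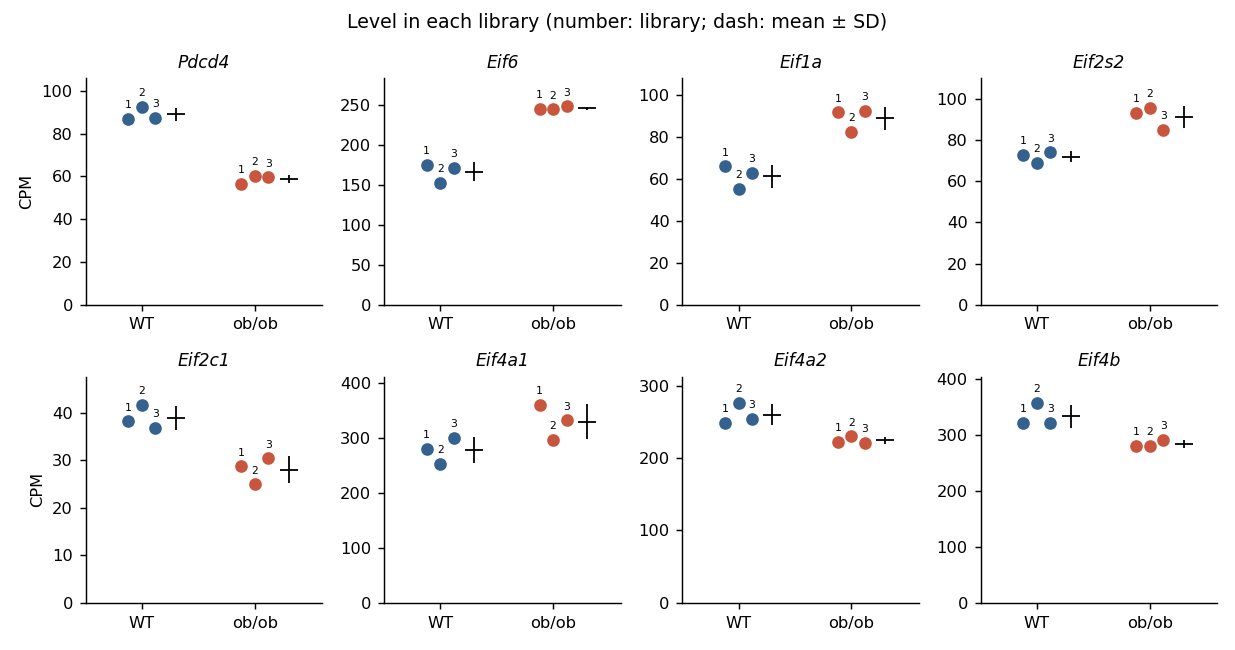
Level of 8 genes in each library (CPM, y axis from 0) for WT (blue) and ob/ob (red). Points are single libraries, each from 2 pooled jejuna and labelled with its number, and the dash with its bar is the mean ± SD of 3. Pdcd4 lies at 56.7 to 60.1 CPM in ob/ob and at 87.1 to 92.8 CPM in WT, while Eif4a1 overlaps between the groups.

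Across the members, 5 of 52 passed an adjusted p of 0.05 (edgeR quasi-likelihood test), beside 5.67% of all tested genes. Of these, 3 were higher in ob/ob (Eif6, Eif1a and Eif2s2, beside 3.77% of all genes) and 2 were lower (Pdcd4 and Eif2c1, beside 1.91%). Without the 4 Argonaute rows it was 4 of 48. Of all 52, there were 2 without ob/ob library 1, 3 without ob/ob library 2, 4 without WT library 2 and 5 without each of the others. The groups did not overlap for 22 members, 15 with ob/ob above WT and 7 below, beside 32.0% of all genes in either direction, 15.8% above and 16.2% below. At an unadjusted p under 0.05 there were 16 members, beside 25.9% of all genes. Nothing is read from these counts, since the members were proposed from this comparison. The log2 fold changes ran from -0.60 for Pdcd4 to 0.56 for Eif6, with a median of 0.03 beside -0.01 over all tested genes. When libraries were scaled by their totals alone, the median of all genes moved to -0.13 and that of the members to -0.09, so differences of about 0.1 depend on the scaling.

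**Figure D2:**
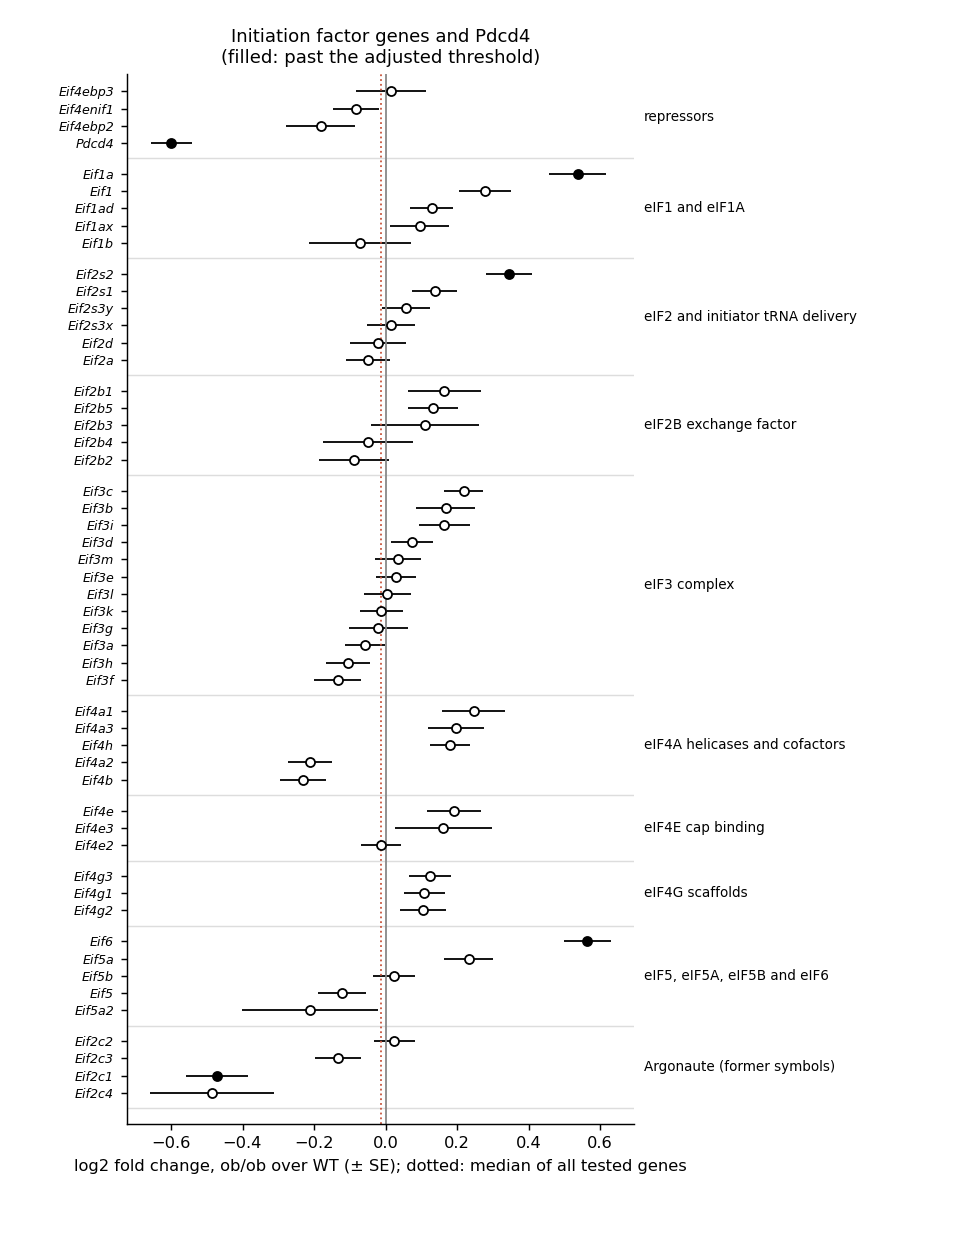
Log2 fold change of ob/ob over WT (x axis, points with bars of ± SE) for the 52 tested members, grouped by role. Filled points passed the adjusted threshold (5 genes), the dotted line is the median of all tested genes at -0.01, and Pdcd4 at -0.60 and Eif6 at 0.56 are the ends of the range.

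Eif6 (chr2:155819832-155826925, minus strand) encodes a factor that binds the large ribosomal subunit and keeps it from joining the small one before its time. It stood at 244, 244 and 248 CPM in ob/ob libraries 1 to 3 and at 175, 152 and 171 CPM in WT. The ob/ob libraries lay close together and all above WT, with means of 245 ± 1.99 and 166 ± 11.9 CPM (SD, n = 3 each) and a log2 fold change of 0.56 (SE 0.07). It shared 1.65% of its 50-base words with other genes. Pdcd4 and Eif6 passed the threshold under all 15 alternative settings of the analysis, with log2 fold changes of -0.72 to -0.57 and of 0.45 to 0.60.

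Eif1a (chr18:46597701-46616456, plus strand) encodes a form of eIF1A, which helps the small subunit scan. Its ob/ob libraries were at 91.8, 82.6 and 92.5 CPM and its WT libraries at 65.98, 55.05 and 62.7 CPM. The lowest ob/ob library was above the highest WT library, and the log2 fold change was 0.54 (SE 0.08). The X-linked paralog Eif1ax, at 26.3 to 30.6 CPM in ob/ob and 24.7 to 27.3 CPM in WT, overlapped between the groups. Eif1, which guards the choice of the start codon, was at 123, 123 and 117 CPM in ob/ob and 92.9, 110.2 and 96.5 CPM in WT and did not overlap, but its log2 fold change of 0.28 (SE 0.07) did not pass the threshold, though it did so without WT library 2, at 0.35, and with DESeq2 and the edgeR likelihood ratio test, at 0.28 each. It shared 31.6% of its words with other genes, so its level is uncertain. The 5 genes grouped in this role, Eif1ad and Eif1b among them, summed to 292 to 308 CPM in ob/ob and 240.1 to 249 CPM in WT. Most of this difference was that of Eif1a, with means of 88.9 and 61.3 CPM, and of Eif1, with means of 121 and 99.9 CPM. Eif1b, like Eif1ax, overlapped between the groups. Without ob/ob library 1, Eif1a missed the threshold with a log2 fold change of 0.51.

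Eif2s2 (chr2:154871410-154892935, minus strand) encodes the beta subunit of eIF2. Its ob/ob libraries were at 93.6, 95.6 and 85.2 CPM and its WT libraries at 72.7, 69.0 and 74.2 CPM. The groups did not overlap, and the log2 fold change was 0.35 (SE 0.06). The alpha subunit gene Eif2s1, which carries the serine that stress kinases phosphorylate, had a log2 fold change of 0.14 (SE 0.06) without overlap. The gamma subunit genes Eif2s3x and Eif2s3y, on the X and Y chromosomes, were at 0.02 and 0.06 and overlapped. Eif2s3x took 64.0 to 66.8% of the CPM of this pair in ob/ob and 65.8 to 66.6% in WT. However, 36.2% of the 50-base words of Eif2s3x also occurred in the gene Gm2223, so this share is uncertain. Eif2a and Eif2d, which can bring tRNA to the ribosome without eIF2, were at -0.05 and -0.02. Of the words of Eif2s2, 27.8% also occurred in the predicted gene Gm9892, so some of its reads may have been placed there or dropped. Its call was lost without ob/ob library 1, ob/ob library 2 or WT library 2, where the log2 fold change was 0.33, 0.31 and 0.32.

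The 5 genes of eIF2B, the factor that recharges eIF2 with GTP, all overlapped between the groups and none passed the threshold. Their log2 fold changes ran from -0.09 for Eif2b2 to 0.16 for Eif2b1. Their summed level was 92.2 to 105 CPM in ob/ob and 91.0 to 100.3 CPM in WT.

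None of the 12 tested genes of eIF3, the largest initiation complex, which bridges the small subunit and eIF4G, passed the threshold, and their median log2 fold change was 0.02. Eif3c was the highest, at 180.2, 190.3 and 179.5 CPM in ob/ob against 156, 156 and 161 CPM in WT, with a log2 fold change of 0.22 (SE 0.06). Eif3f was the lowest at -0.13 (SE 0.06), also without overlap. The 2 genes therefore lay on opposite sides of 0 within the same complex, and the summed eIF3 level of 993 to 1042 CPM in ob/ob overlapped that of 963 to 1017 CPM in WT. Eif3j1 and Eif3j2 were listed at 0 counts in every library. Of their 50-base words 39.8% and 91.8% also occurred in other genes, for the most part in each other, and whether reads common to both were dropped in counting was not tested. The other words of Eif3j1 occurred in no other gene, and the cause of its 0 counts was not tested.

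The eIF4A helicases and their cofactors lay on both sides of 0, and none of the 5 genes passed the threshold. Eif4a1, the main cytoplasmic helicase, was at 360.4, 297 and 332 CPM in ob/ob and 280.1, 253 and 300.4 CPM in WT, with a log2 fold change of 0.25 (SE 0.09), and ob/ob library 2 lay below WT library 3. Its close paralog Eif4a2 was at 222.04, 230.0 and 220.8 CPM in ob/ob and 249, 276 and 254 CPM in WT, with all ob/ob libraries lower and a log2 fold change of -0.21 (SE 0.06). Eif4b, a cofactor that stimulates eIF4A, was at 280.0, 280.3 and 292 CPM in ob/ob and 322, 357 and 321 CPM in WT, with a log2 fold change of -0.23 (SE 0.06). The other cofactor gene, Eif4h, was on the opposite side at 0.18 (SE 0.06), with 286 to 292 CPM in ob/ob against 248 to 263 CPM in WT. Eif4a3, whose protein works in the exon junction complex rather than in initiation, was at 0.20 (SE 0.08) and did not overlap. The summed level of these 5 genes was 1145 to 1199 CPM in ob/ob and 1160.0 to 1176 CPM in WT, so the sum overlapped where 4 of its 5 parts did not.

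Within each library, Eif4a1 took 61.9, 56.3 and 60.0% of the summed CPM of Eif4a1 and Eif4a2 in ob/ob and 53.0, 47.8 and 54.2% in WT. The lowest ob/ob share was above the highest WT share, and the means of 59.4 ± 2.82% and 51.7 ± 3.36% (SD, n = 3 each) differed by 7.75 percentage points. This ratio does not depend on how libraries were scaled, and the difference was 5.84 to 9.29 points when any library was left out. However, 65.3% of the 50-base words of Eif4a1 also occurred in other genes, for the most part in the pseudogene Eif4a-ps4, against 11.5% for Eif4a2, so the share itself is uncertain. Set against its binding partners, Pdcd4 was at 9.73, 11.4 and 10.8 per 100 of Eif4a1 and Eif4a2 in ob/ob and at 16.5, 17.5 and 15.8 in WT, in CPM. Per kb of exon the same ratio was 15.9 ± 1.36 in ob/ob and 25.2 ± 1.52 in WT (SD, n = 3 each). Either way the ratio was lower in every ob/ob library than in every WT library. Since Pdcd4 was proposed from this comparison, the ratio restates its lower level and is not a further result. It also rests in part on Eif4a1, whose level is uncertain.

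**Figure D3:**
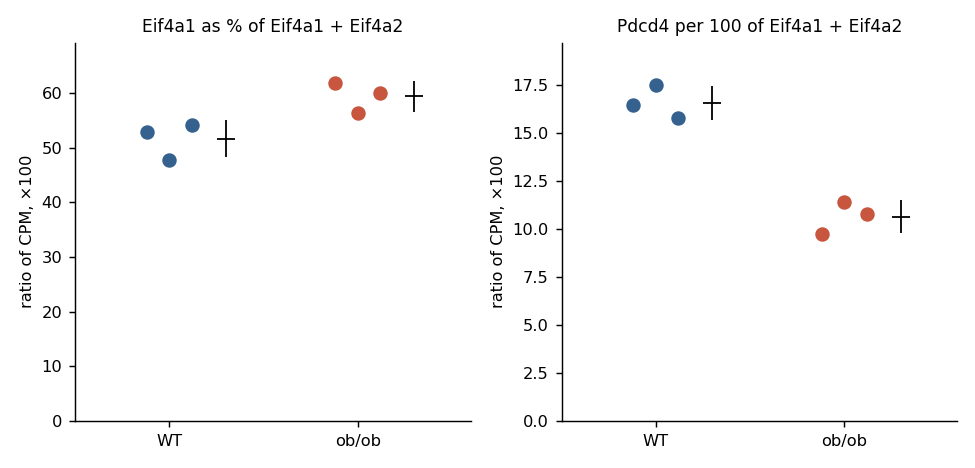
Ratios within each library (y axes from 0), with Eif4a1 as a percent of the CPM of Eif4a1 and Eif4a2 on the left and Pdcd4 per 100 CPM of both helicase genes on the right. Points are the 3 WT (blue) and 3 ob/ob (red) libraries and the dash with its bar is the mean ± SD, with 51.7% and 59.4% on the left and 16.6 and 10.6 on the right.

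The promoters of the helicase paralogs are printed because the 2 genes lay on opposite sides of 0. Each runs from 250 bases before to 50 bases after the start of a RefSeq transcript (GRCm38.p6). That of Eif4a1 is at chr11:69672374-69672673 on the minus strand and that of Eif4a2 at chr16:23107218-23107517 on the plus strand, and capitals mark the E-box CACGTG, the letters that MYC and related factors bind.
Eif4a1: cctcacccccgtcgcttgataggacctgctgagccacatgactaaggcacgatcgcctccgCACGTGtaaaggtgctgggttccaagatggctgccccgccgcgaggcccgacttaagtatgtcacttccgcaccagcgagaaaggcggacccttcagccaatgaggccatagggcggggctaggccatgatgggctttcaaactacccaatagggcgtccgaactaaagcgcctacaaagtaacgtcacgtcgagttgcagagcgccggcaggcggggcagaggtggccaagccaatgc
Eif4a2: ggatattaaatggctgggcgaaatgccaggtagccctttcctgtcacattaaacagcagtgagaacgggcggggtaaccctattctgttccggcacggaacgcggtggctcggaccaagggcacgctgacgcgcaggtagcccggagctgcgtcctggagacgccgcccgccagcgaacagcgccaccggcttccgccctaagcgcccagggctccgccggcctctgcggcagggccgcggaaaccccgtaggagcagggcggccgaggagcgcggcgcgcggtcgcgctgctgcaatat
The E-box of Eif4a1 lies 189 bases before the start, and the window of Eif4a2 has none. RefSeq gave 57 promoters for 43 of the 55 members, and 12 of these promoters (21.1%), of 10 genes, held CACGTG, which reads the same on both strands, beside 7.15% of 32851 promoters. Of the 10 genes, 5 had log2 fold changes above 0 and 5 below, from -0.21 to 0.25, and 0 passed the threshold. The amino acid response element core TGATGNAA, on either strand, was in 1.75% of the members' promoters beside 3.97% of all, and the cAMP response element TGACGTCA was in 0 beside 1.79%.

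The 3 eIF4G genes all lay above WT in ob/ob without passing the threshold. Eif4g1, the main scaffold, was at 487 to 503 CPM in ob/ob and 450.4 to 466 CPM in WT, with a log2 fold change of 0.11 (SE 0.06). Eif4g2, whose protein lacks the site for eIF4E, was at 0.11 (SE 0.07), and Eif4g3 at 0.12 (SE 0.06). Scaled by library totals alone, Eif4g1 and Eif4g2 turned to -0.01, so their direction rests on the scaling. Eif4g1 took 39.8 to 40.8% of the summed eIF4G CPM in ob/ob and 39.6 to 40.9% in WT.

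Of the cap-binding genes, Eif4e was at 0.19 (SE 0.08) without overlap, at 45.2 to 52.5 CPM in ob/ob and 39.5 to 44.5 CPM in WT. Eif4e2, whose protein binds the cap without joining eIF4G, was at -0.01, and Eif4e3 at 0.16 (SE 0.14). Eif4e1b, an egg cell form, was listed at 0 counts in every library. Among the repressors other than Pdcd4, none passed the threshold. Eif4ebp2 was at -0.18 (SE 0.10), Eif4ebp3 at 0.02 and Eif4enif1, which carries eIF4E into the nucleus, at -0.08.

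Eif5a, whose protein carries the amino acid hypusine, was at 167, 147 and 157 CPM in ob/ob and 134, 126 and 141 CPM in WT, with a log2 fold change of 0.23 (SE 0.07) that did not pass the threshold. Its paralog Eif5a2 was at 1.97 to 2.80 CPM in ob/ob and 2.55 to 2.83 CPM in WT. Eif5, which makes eIF2 split its GTP, was at -0.12 (SE 0.07), and Eif5b, which joins the subunits, at 0.02. With Eif6, these 5 genes summed to 613 to 655 CPM in ob/ob and 534 to 564 CPM in WT. The means of this sum were 634 and 547 CPM, and those of Eif6 alone were 245 and 166 CPM. Most of the difference in the sum was therefore that of Eif6, and Eif5, Eif5a2 and Eif5b overlapped between the groups.

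Among the Argonaute rows, Eif2c1 (Ago1, chr4:126435012-126468583, minus strand) was at 28.7, 24.9 and 30.4 CPM in ob/ob and 38.2, 41.7 and 36.8 CPM in WT. All ob/ob libraries were lower, with a log2 fold change of -0.47 (SE 0.09), and the call was lost without ob/ob library 1, ob/ob library 2 or WT library 2, where the value was -0.49, -0.40 and -0.42. Eif2c4 was at -0.49 (SE 0.17) and Eif2c3 at -0.13 (SE 0.07), both without overlap and neither past the threshold. Eif2c2 (Ago2), whose protein can cut its targets, was at 0.02 (SE 0.06), and this small value turned below 0 under 3 alternatives.

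Levels differed more between genes than between genotypes. In CPM per kb of exon, the highest WT levels within their roles were Eif4b at 74.6, Eif4g1 at 62.8, Eif6 at 61.4, Eif3h at 47.7, Eif1 at 47.6, Eif2s3x at 30.7, Pdcd4 at 28.4, Eif2b5 at 15.6, Eif2c2 at 12.04 and Eif4e2 at 7.22. The cap-binding genes were thus low beside the helicase group and the scaffold genes Eif4g1 and Eif4g2, in CPM per kb. The third scaffold gene, Eif4g3, was at 5.20 in WT, below Eif4e2 and Eif4e. Eif1, Eif2s3x and Eif3h shared 31.6%, 36.2% and 26.2% of their 50-base words with other genes, so their levels are uncertain. Several neighbours in this order were not separate over the 3 WT libraries, namely Eif4g1 and Eif4g2 (60.9), Eif6 and Eif5a (56.3), Eif3h and Eif3c (44.9) and Eif4e2 and Eif4e (7.02). In ob/ob the leading gene changed in 3 roles, to Eif4a1 at 76.0 over Eif4b at 63.6, to Eif3c at 52.2 over Eif3h at 44.3, and to Eif4e at 8.02 over Eif4e2 at 7.16. With the length of the longest transcript in place of all exons, 9 of 10 roles kept their leading WT gene, and Eif4a2 led the helicase group. By that length the ob/ob order differed too, with Eif3h at 55.2 over Eif3c at 54.2, Eif4e2 at 15.5 over Eif4e at 9.65 and Eif4h at 105.6 over Eif4a1 at 104.1, so the changes of leading gene in ob/ob rest on the choice of length.

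**Figure D4:**
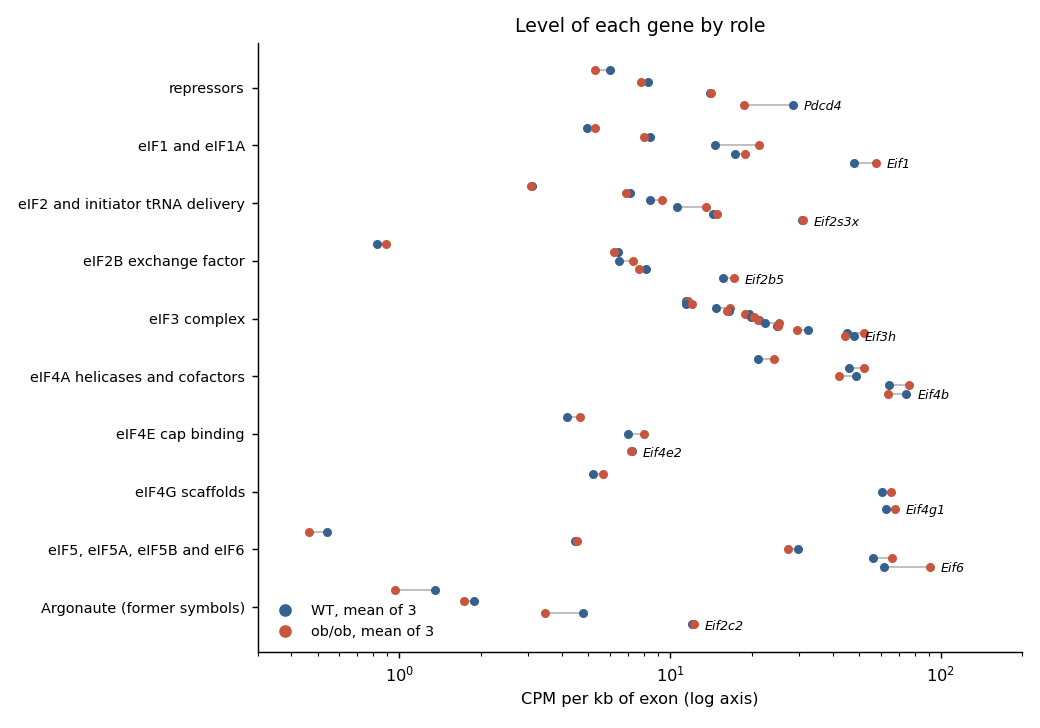
Mean level of each tested member in CPM per kb of exon (log x axis) by role, for WT (blue) and ob/ob (red), each the mean of 3 libraries with a line joining the same gene, and the gene with the highest WT level of each role named. The WT levels of the named genes run from 7.22 for Eif4e2 to 74.6 for Eif4b, and the lines between blue and red are longest for Pdcd4, Eif6 and Eif1a.

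Genes that control translation but lie outside the rule were taken as a list of 53, all tested. Of these, 3 passed the threshold in the higher and 2 in the lower direction, which is 9.43% beside 5.67% of all genes, and the median log2 fold change was 0.00. The split was 1 higher and 4 lower with upper quartile factors and 1 higher and 9 lower with library totals alone. Eif4ebp1, which encodes a 4E-BP that mTORC1 controls, was at 17.9, 21.04 and 16.0 CPM in ob/ob and 9.18, 10.2 and 10.8 CPM in WT. It did not overlap, and its log2 fold change of 0.86 (SE 0.12, edgeR quasi-likelihood adjusted p = 0.0105) held in all 15 alternatives. Ppp1r15b, a phosphatase subunit that undoes the phosphorylation of eIF2 alpha, was at 370.1, 410.0 and 358 CPM in ob/ob and 304, 311 and 314 CPM in WT, a log2 fold change of 0.29 (edgeR adjusted p = 0.0404). Etf1, the release factor that ends translation, rose by 0.28 (edgeR adjusted p = 0.0431). Tsc1, which holds mTORC1 back, fell by 0.33 (edgeR adjusted p = 0.0197), from 41.6 to 44.1 CPM in WT to 32.4 to 35.5 CPM in ob/ob. Mknk2, a kinase of eIF4E, fell by 0.27 (edgeR adjusted p = 0.0376).

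A few other genes of these roles that did not pass in the same fit are given as values. Mknk1, the paralog of Mknk2, was at -0.32 (edgeR adjusted p = 0.0570) and the eIF2 alpha kinase gene Eif2ak3 at 0.20 (edgeR adjusted p = 0.0647), both without overlap. Ppp1r15a, of the same role as Ppp1r15b, was on the opposite side at -0.38 (edgeR adjusted p = 0.151), without overlap. The kinase gene Eif2ak4 was at -0.20 (edgeR adjusted p = 0.214), also without overlap. Of the 8 genes in the role of eIF2 alpha kinases and phosphatase, 2 lay above 0 and 6 below. Skp1a, part of the SCF ubiquitin ligase that marks PDCD4 for breakdown, was at 0.19 (edgeR adjusted p = 0.0790), and 0 of 5 genes of that ligase passed. Paip2, an inhibitor of the poly(A)-binding protein, was at -0.24 (edgeR adjusted p = 0.0525), Abce1, which recycles ribosomes, at 0.22 (edgeR adjusted p = 0.0894), and Dohh, which completes hypusine on eIF5A, at 0.16 (edgeR adjusted p = 0.230). The count of 5 went down to 1 without ob/ob library 1, ob/ob library 2 or WT library 2, to 2 when ob/ob library 3 or WT library 1 was left out and to 3 for WT library 3. With upper quartile factors and with library totals alone, Ppp1r15b (0.25 and 0.17) and Etf1 (0.24 and 0.17) missed the threshold. Mknk2 and Ppp1r15b missed it when any library was left out, at -0.32 to -0.24 and 0.23 to 0.33. Etf1 did so for every library but WT library 3, with 0.23 to 0.30, and Tsc1 for ob/ob libraries 1 and 2 and WT library 2, at -0.33, -0.30 and -0.32.

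**Figure D5:**
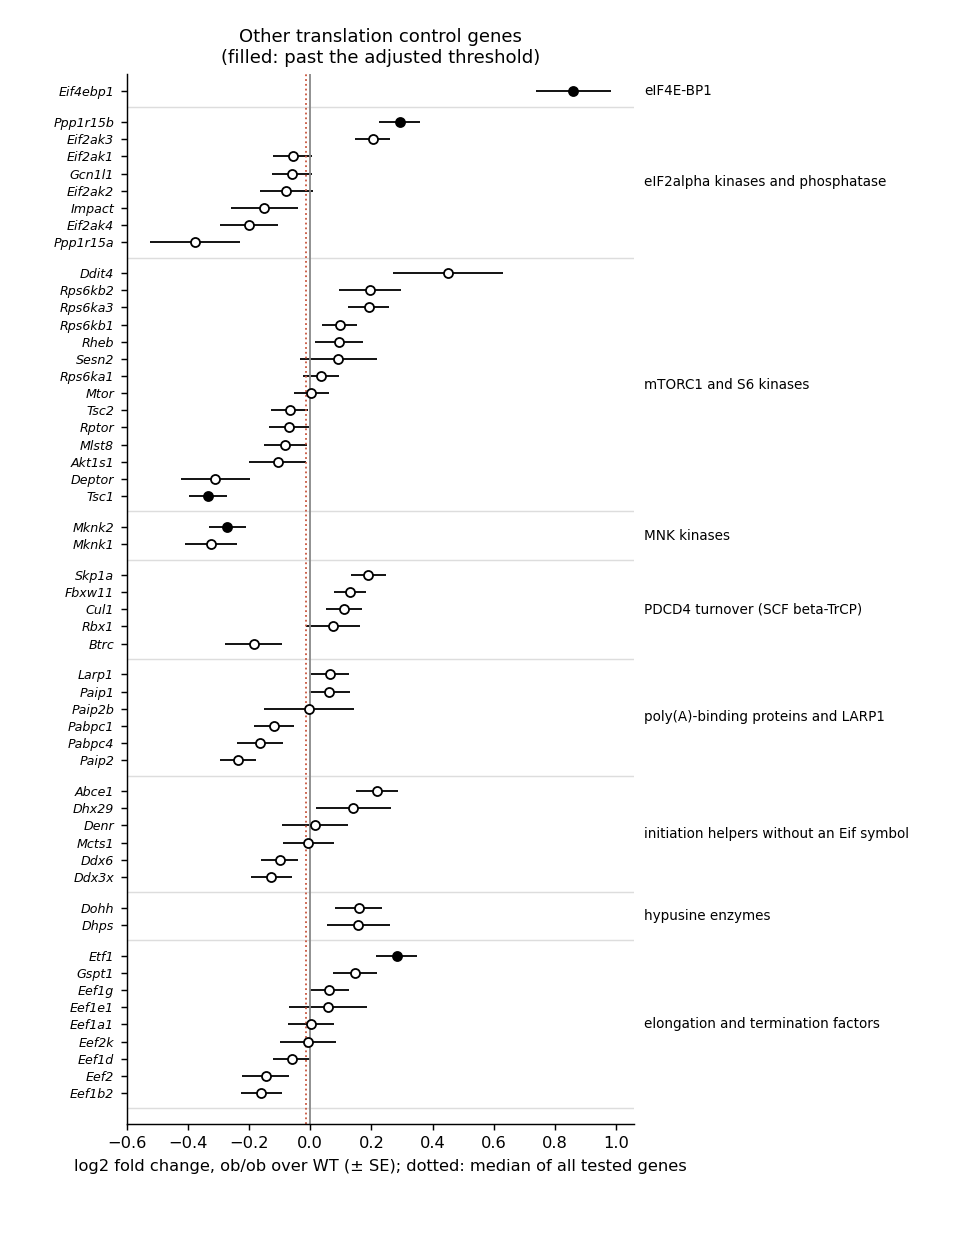
Log2 fold change of ob/ob over WT (x axis, points with bars of ± SE) for 53 genes that control translation outside the initiation factors, grouped by role. Filled points passed the adjusted threshold (5 genes), the dotted line is the median of all tested genes at -0.01, and Eif4ebp1 at 0.86 is the highest.

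Other parts of the translation machinery gave different counts in the same comparison. Of 20 aminoacyl-tRNA synthetase genes, 14 were higher and 0 were lower, and the median was 0.43 on the log2 scale. Over all tested genes, 3.77% were higher and 1.91% lower, and the lists were chosen with earlier results of these data known. The number higher was 8 when ob/ob library 1 was left out and 9 when WT library 2 was. Of 78 tested ribosomal protein genes, 0 were higher and 1 was lower, with a median of 0.01. The initiation factors, with 3 higher and 2 lower of 52 and a median of 0.03, lay nearer to the ribosomal proteins by median. The share past the threshold was 9.62% for them, 1.28% for the ribosomal proteins and 70.0% for the synthetases, beside 5.67% of all genes. The difference between the lists was not tested. Summed over the 50 members other than Pdcd4 and the Argonaute rows, the level was 4907 to 5184 CPM in ob/ob and 4706 to 4820 CPM in WT without overlap, but as a share of raw counts it was 0.454 to 0.507% in ob/ob and 0.488 to 0.497% in WT and overlapped.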

How the data were processed

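Total RNA of 1 cm of proximal jejunum was sequenced, with 3 libraries per genotype and RNA of 2 jejuna in each. According to the submitters' processing notes the authors aligned reads with TopHat2 to mm10, counted them with HTSeq 0.6p1 and used edgeR 3.4.2. The deposited values used here are raw counts of reads for each gene symbol. The sources used here do not state a strand setting or what was done with reads that match several genes, and antisense, overlapping and copied genes are therefore uncertain. Further deposited columns, 42 in all and 12 of them from samples outside this series, hold rescaled or selected values or the authors' own fold changes and p-values, and were not used.

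Tests were run on genes with over 1 CPM in 3 or more libraries, by edgeR 4.0.16 (R 4.3.3) and its quasi-likelihood F-test, with TMM factors, group as the only term, two-sided tests and Benjamini-Hochberg adjustment at 0.05. The SE was the size of the log2 fold change divided by the square root of F. P-values measure the spread between pools of jejuna. Totals of 14661981 to 18286080 counts leave counting error small for all but the lowest members. No pair of libraries was alike within counting noise. Exon lengths came from GENCODE M21 (GRCm38), promoters and the microRNA from RefSeq. Copies were looked for as words of 50 bases in the longest protein-coding transcript of each member that occurred exactly in annotated transcripts of other genes. Alternatives were other scalings and filters, DESeq2 1.42.0, edgeR's likelihood ratio test, limma-voom (limma 3.58.1), a replicate block and each library left out. An exact permutation test of within-library ratios cannot go below 0.1 with 3 against 3, and such ratios are given as descriptions.

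The members and lists were chosen with earlier results of these data known. Named genes were Pdcd4, the Eif4a and Eif4g genes, members past the threshold or at 0, and in each role the gene with the highest level per kb and the one with the smallest p. Outside the members they were the genes past the threshold and the one with the smallest p in each role. Further members, Mknk1, Eif2ak3, Ppp1r15a and Eif2ak4 were named after their values were seen.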

Additional observations from a re-analysis of the deposited data

How the results depend on the processing

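Pdcd4, Eif6 and Eif4ebp1 kept their direction and their call under all 15 alternatives. The members past the threshold numbered 5, and 8 with library size alone or with DESeq2 and 2 to 5 when a library was left out. Members added by at least 1 alternative were Eif1, Eif3c, Eif3f, Eif4a2 and Eif4b. Over all genes the count of 747 became 1735 with library size alone, 1404 with the likelihood ratio test and 122 to 674 when a library was left out. For the 53 control genes the count of 5 became 10 with library size alone and 1 to 3 with a library left out. The 14 aminoacyl-tRNA synthetases became 8 to 13 with a library left out. For ribosomal proteins the count of 1 became 3 with upper quartile factors, 7 with library size alone, 2 with a minimum mean of 5 CPM, 3 with DESeq2, 4 with the likelihood ratio test and 0 to 2 with a library left out. Pdcd4 per 100 helicase CPM differed by -5.95, and by -9.30 per kb. Small values changed sign. Eif2c2 was -0.017 with upper quartile factors, -0.092 with library size alone and -0.0090 to 0.053 with a library left out. Eif2s3x was -0.025 and -0.099 under those scalings, -0.0026 with the minimum mean and -0.043 to 0.061 with a library left out. Eif4e2 was -0.034 to 0.0056 with a library left out, and Eif4g1 and Eif4g2 were -0.0070 and -0.0099 with library size alone. The cause of these changes was not tested, except that fewer libraries leave the test less to work with. With upper quartile factors the members' calls were 3 higher and 4 lower and with library size alone 3 and 5, in place of 3 and 2, and over all genes they were 390 and 468 or 328 and 1407 in place of 496 and 251.

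Libraries with the same number had correlations of their deviations of -0.083, 0.074 and -0.021, so the numbers do not pair them, and not every library correlated best with its own number. With the replicate number as a block, 730 genes passed, the same 5 members did, and 4 of the control genes did, with Ppp1r15b lost. Depth limits Eif5a2, at 1.97 to 2.83 CPM,. A level under 3 counts, or 0.159 to 0.198 CPM, would not be told from the 0 counts of Eif3j1, Eif3j2 and Eif4e1b, and the cause of those zeros was not tested.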

Other observations

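Shares of the 4E-BP mRNAs did not overlap between the genotypes. In CPM per kb of exon, Eif4ebp1 took 29.7, 33.0 and 27.2% of the sum of Eif4ebp1, Eif4ebp2 and Eif4ebp3 in ob/ob libraries 1 to 3 and 18.1, 17.7 and 20.3% in WT. The lowest ob/ob share was above the highest WT share. Eif4ebp3 was the largest part in both groups, at 49.3 to 52.9% in ob/ob and 54.6 to 59.8% in WT, and Eif4ebp2 took 17.7 to 19.8% and 22.1 to 25.5%. The 4E-BP sum itself was 26.8 to 29.0 CPM per kb in ob/ob and 23.1 to 26.3 in WT without overlap, while in CPM, not divided by length, it overlapped. The 4E-BP sum per unit of Eif4e, per kb, was 3.47 ± 0.29 in ob/ob and 3.52 ± 0.45 in WT (SD, n = 3 each) and overlapped. Of the 50-base words of Eif4ebp3, 65.5% also occurred in the gene AC115631.1, so its level, the shares and the ratio to Eif4e are uncertain. These sums were formed after the value of Eif4ebp1 had been seen and carry no test.

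The median coefficient of variation over the 52 tested members was 4.58% in ob/ob and 5.44% in WT, beside 7.58% and 7.74% over all tested genes. It was 5.64% and 4.10% over the 53 translation control genes, 2.57% and 5.96% over the ribosomal protein genes and 7.40% and 4.79% over the aminoacyl-tRNA synthetase genes. The lists were not matched for level, and the part of level in these values was not tested.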
